A study of Saccharomyces cerevisiae with 6 samples.

Results

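The genes by which yeast takes up and uses nitrogen sources were followed through a drug response in 3 strains. The group was a written list of 46 genes by standard name: genes repressed on good nitrogen sources, the enzymes that assimilate ammonium, the GATA transcription factors that control both, and the amino acid permeases. All 46 were found among the 6362 genes measured. The haploid Saccharomyces cerevisiae strains were BY4742, its derivative BY4742derg6 and its derivative BY4742dsnq2, called parental, erg6 deletion and snq2 deletion here. All 3 are of mating type alpha and carry his3, leu2, lys2 and ura3 mutations, so that they depend on uptake of histidine, leucine, lysine and uracil. A kanMX cassette replaced ERG6, a methyltransferase of late ergosterol synthesis, in the first derivative and SNQ2, a drug-exporting ABC transporter, in the other. The number of clones behind each strain is not stated.

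In each strain, cells at 1000000000 per ml were treated with 0.2 mM of the compound 089 for 4 h at 28 °C in glucose medium with yeast extract and peptone at pH 4.8. The labels name 089 as a dioxa-aza-bicyclooctane carboxylic ethylamide that bears a phenyl and a benzhydryl group (benzydril in the labels). Treated RNA was labelled with Cy5 and RNA of untreated cells of the same strain with Cy3, on 2 arrays per strain that the series text calls biological replicates. Each value is the log2 of the treated signal over the untreated one. Titles and dye labels make this direction likely, but neither it nor the base 2 is stated, and all signs below would flip if the ratio ran the other way. Where an estimate carries ±, the second number is the limma standard error (n = 2 per strain), and a gene passed when its limma p, adjusted over all 6362 genes by Benjamini-Hochberg, was under 0.05. "Rose" and "fell" are used only for genes that passed.

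Yeast prefers glutamine, ammonium and a few amino acids, and keeps the genes for poorer sources such as allantoin, urea, proline and gamma-aminobutyrate (GABA) silent while the better ones last. This nitrogen catabolite repression acts by holding the GATA activators Gln3 and Gat1 outside the nucleus, with Ure2 and the TORC1 kinase upstream, while Dal80 and Gzf3 are repressors that bind the same DNA sites. A separate sensor in the plasma membrane, Ssy1 with Ptr3 and Ssy5, reads amino acids outside the cell and releases the factors Stp1 and Stp2, which switch on several permease genes.

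The calls have a wide background. In the parental, erg6 deletion and snq2 deletion responses 43.2%, 72.3% and 40.6% of the 683 control spots (empty or Blank) passed the same limit, and the central 95% of their values spanned -1.36 to 2.49, -1.87 to 3.57 and -1.43 to 2.00. The empty spots had medians of 0.7, 2.11 and 0.55, so a rise had to be larger than a fall to leave these ranges. The median of all genes lay at -0.11 in the erg6 deletion response and within 0.03 of 0 in the others, so a call near 0 in the erg6 deletion strain depends on centring. Replicates correlated across all genes at r = 0.901, 0.713 and 0.916 in the parental, erg6 deletion and snq2 deletion strains. The treated cells carried Cy5 on every array, so a gene-specific dye effect cannot be told apart from a response shared by the strains. The ERG6 and SNQ2 ratios compare a strain with itself and so do not test its genotype, and no ratio gives the level of a gene. Each array averages a culture, so fewer cells with a transcript and less of it per cell cannot be told apart.

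Of the 46 genes 24, 24 and 29 passed in the parental, erg6 deletion and snq2 deletion responses, beside 54.0%, 54.7% and 51.5% of all genes. In the parental response 13 rose and 11 fell, where 27.3% of all genes rose and 26.7% fell. With ERG6 deleted 9 rose and 15 fell, against 23.2% and 31.5% of all genes, and on centred arrays 11 rose and 11 fell. With SNQ2 deleted 9 rose and 20 fell, against 25.3% and 26.2%. As a share of the 46 these counts are 28.3% and 23.9%, then 19.6% and 32.6%, then 19.6% and 43.5%, so only the falls in the snq2 deletion strain lay more than 10 percentage points from the background. Of the 20 that fell there, 10 did not pass in the parental response (10.8% of all genes), which is no test of a difference. The medians over the 46 were -0.04, -0.18 and -0.31, beside -0.02, -0.11 and -0.03 over all genes. DAL2 and PUT4 rose in all 3 responses, as did 3.43% of all genes, and GLN1, CAN1 and HIP1 fell in all 3, as did 4.56%. Opposite calls in the parental and erg6 deletion responses were made for 11 of the 46 (23.9%), against 18.4% of all genes. Of these 7 were higher in the parental and lower in the erg6 deletion strain (10.1% of all genes), and 4 the reverse (8.36%). Opposite calls in the parental and snq2 deletion responses were made for 2 of the 46 (6.40% of all genes), and in the erg6 and snq2 deletion responses for 6 (11.9%).

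Few of these calls left the range of the control spots, which reached further above 0 than below it in each response. In the snq2 deletion response UGA1, MEP2, MEP3, GLN1, BAP3 and PTR2 lay outside the central 95% of the control spots, which makes 6 of the 46, against 5.23% of all genes. In the parental response GLN1 did, against 3.77%. In the erg6 deletion response 0 of the 24 genes that passed in limma did, against 2.53%, and with an unadjusted p under 0.05 UGA4 did, whose arrays disagreed.

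**Figure D1:**
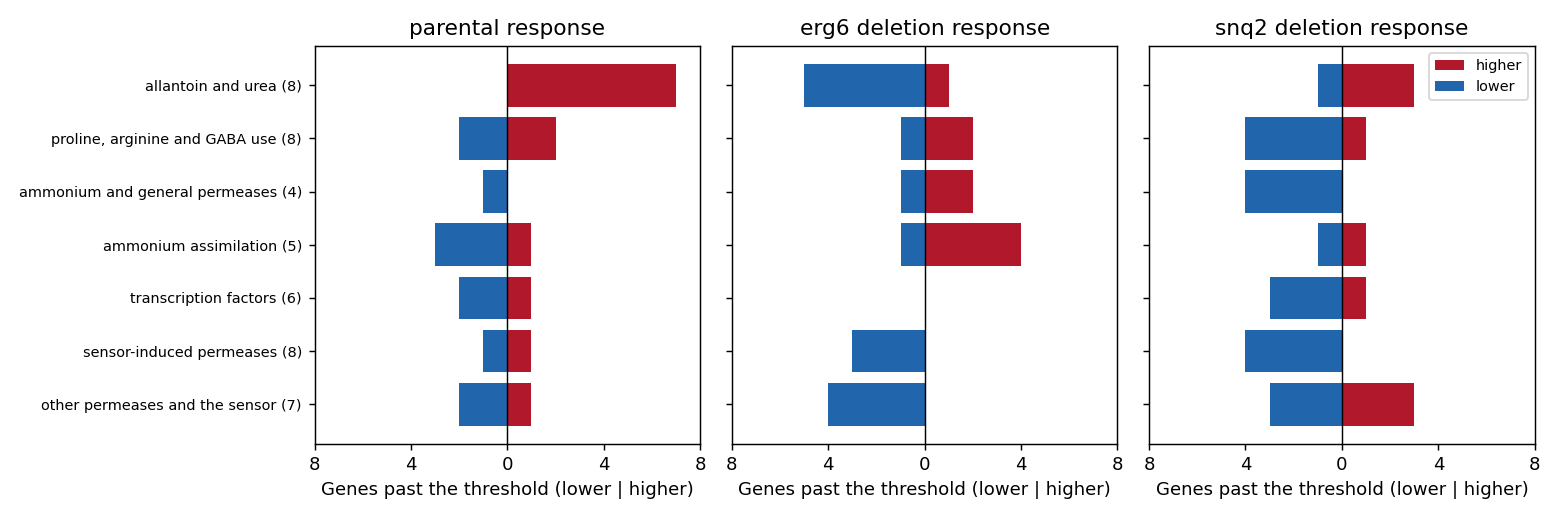
Number of genes past the threshold (horizontal axis, lower to the left and higher to the right) in each of 7 functional groups, with the group size in brackets, in the parental, erg6 deletion and snq2 deletion responses. In the allantoin and urea group 7 of 8 genes rose in the parental strain and 5 fell in the erg6 deletion strain, while all 4 ammonium and general permeases fell in the snq2 deletion strain. Those 5 falls were lost in a fit to the erg6 deletion strain alone. Of all genes 27.3% rose in the parental, 31.5% fell in the erg6 deletion and 26.2% fell in the snq2 deletion response.

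Most genes for the use of allantoin and urea rose in the parental strain. In the erg6 deletion strain 5 of them fell, but none of these 5 calls was kept in a fit to that strain alone. Of these 8 genes 7 rose and 1 did not pass in the parental response, with a median of 0.82. In the erg6 deletion response 1 rose and 5 fell (median -0.36), or 1 and 3 on centred arrays. In the snq2 deletion response 3 rose and 1 fell (median 0.13). Of all genes 27.3% and 26.7%, 23.2% and 31.5%, and 25.3% and 26.2% rose and fell in these responses. DUR3, the transporter of urea and polyamines, had ratios of 1.46 and 1.45 in parental cells, -0.23 and -0.30 in erg6 deletion cells, and 0.47 and 0.64 in snq2 deletion cells. The strains did not overlap in this gene, and both parental arrays were the highest. DUR3 rose by 1.45 ± 0.09 in the parental strain (adjusted p = 2.14e-04) and by 0.56 ± 0.09 in the snq2 deletion strain (adjusted p = 0.00408), and fell by 0.27 ± 0.09 in the erg6 deletion strain (adjusted p = 0.0448). DAL5, the permease of allantoate, had 1.23 and 1.08 in parental cells, -0.61 and -0.46 in erg6 deletion cells, and 0.38 and 0.08 in snq2 deletion cells. Again no array of one strain reached into the range of another. DAL5 rose by 1.16 ± 0.11 in the parental strain (adjusted p = 7.14e-04) and fell by 0.54 ± 0.11 in the erg6 deletion strain (adjusted p = 0.00994).

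The other 6 genes of this group, DAL1, DAL4, DAL2, DCG1, DAL7 and DAL3, lie next to each other in this order on chromosome IX, in the RefSeq table of assembly R64. DAL4, the allantoin permease, had 1.38 and 1.32 in parental cells, -0.36 and -0.47 in erg6 deletion cells, and 0.15 and -0.09 in snq2 deletion cells. It rose by 1.35 ± 0.10 in the parental strain (adjusted p = 3.21e-04), fell by 0.41 ± 0.10 in the erg6 deletion strain (adjusted p = 0.0151) and did not pass in the snq2 deletion strain (0.03 ± 0.10). DCG1, a gene of the cluster that is known to respond to nitrogen source, had 0.77 and 0.85 in parental cells, -0.43 and -0.59 in erg6 deletion cells, and 0.60 and 0.55 in snq2 deletion cells. Its ratios were positive in the parental and snq2 deletion strains and negative in the erg6 deletion strain. DCG1 rose by 0.81 ± 0.09 in the parental strain (adjusted p = 0.00103) and by 0.58 ± 0.09 in the snq2 deletion strain (adjusted p = 0.00361), and fell by 0.51 ± 0.09 in the erg6 deletion strain (adjusted p = 0.00537). DAL2, allantoicase, had 0.61 and 0.63 in parental cells, 0.55 and 0.73 in erg6 deletion cells, and 0.69 and 0.84 in snq2 deletion cells. The parental and snq2 deletion arrays each overlapped those of the erg6 deletion strain but not each other. DAL2 rose by 0.62 ± 0.09, 0.64 ± 0.09 and 0.77 ± 0.09 in the parental, erg6 deletion and snq2 deletion strains. DAL1, allantoinase, which takes the first step, rose by 0.83 ± 0.18 in the parental strain and had -0.10 ± 0.18 and -0.12 ± 0.18 in the deletion strains. DAL7, a malate synthase that uses the glyoxylate made from allantoin, rose by 0.39 ± 0.09 in the parental strain and fell by 0.30 ± 0.09 and 0.45 ± 0.09 in the erg6 and snq2 deletion strains. DAL3, which releases urea and glyoxylate from ureidoglycolate, passed in no response, and its erg6 deletion arrays stood at 1.04 and -1.91.

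Several of these calls rest on single arrays or on centring. Fitted without the other strains' arrays, the erg6 deletion response of the 46 genes lost 12 of the 24 calls (DAL4, DAL5, DAL7, DCG1, DUR3, PUT1, MEP1, MEP2, GLN1, GLT1, GNP1 and CAN1, adjusted p from 0.0521 to 0.146), and the parental response so fitted lost that of PUT4. The losses given for each group below are those without 1 array or on rescaled arrays. In the parental response calls were lost for DAL1 without parental replicate 2 (adjusted p up to 0.122) and DAL7 without either parental array (adjusted p up to 0.151). In the erg6 deletion response they were lost for DAL4 without erg6 deletion replicate 2 (adjusted p up to 0.0877), DAL5 without erg6 deletion replicate 1 (adjusted p up to 0.0569), DAL7 without either parental array or either erg6 deletion array and on arrays rescaled in any of the 3 ways (adjusted p up to 0.209) and DUR3 without any 1 of the 6 arrays and on arrays rescaled in any of the 3 ways (adjusted p up to 0.194). In the snq2 deletion response they were lost for DAL7 without snq2 deletion replicate 2 (adjusted p up to 0.116) and DUR3 without snq2 deletion replicate 2 (adjusted p up to 0.05). The parental calls of DUR3, DAL4, DAL5, DCG1 and DAL2 were kept without any 1 array and on rescaled arrays.

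**Figure D2:**
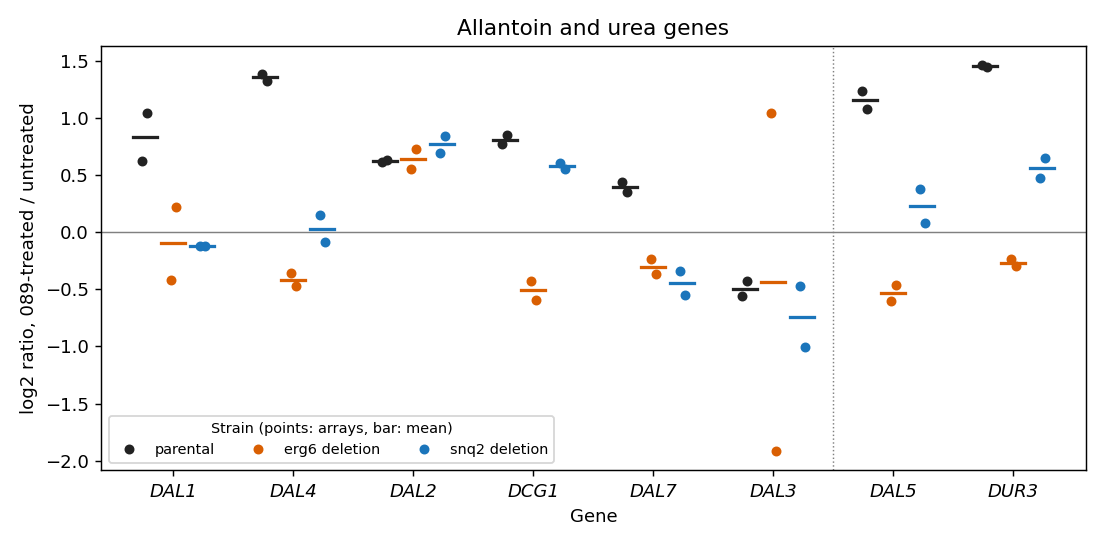
Log2 ratio of treated over untreated cells (vertical axis) for 8 allantoin and urea genes, with a point for each array, a bar for the mean of the 2 arrays and a colour for each strain. The 6 genes left of the dotted line are neighbours on chromosome IX, and parental DAL4, DAL5 and DUR3 lie between 1.08 and 1.46, above all arrays of the deletion strains.

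Genes for proline, arginine and GABA did not move as one group. Of these 8 genes 2 rose and 2 fell in the parental response (median -0.03), 2 rose and 1 fell in the erg6 deletion response (-0.19), and 1 rose and 4 fell in the snq2 deletion response (-0.54). The shares of all genes that rose and fell were 27.3% and 26.7%, 23.2% and 31.5%, and 25.3% and 26.2% in that order. UGA1, the transaminase that opens GABA breakdown, had -1.11 and -1.12 in parental cells, -0.33 and -0.17 in erg6 deletion cells, and -2.73 and -2.80 in snq2 deletion cells. Its snq2 deletion arrays were the lowest by more than 1.5 log2 units, and its replicates lay close together in every strain. UGA1 fell by 1.11 ± 0.08 in the parental strain (adjusted p = 3.93e-04) and by 2.76 ± 0.08 in the snq2 deletion strain (adjusted p = 1.31e-04), a 6.79-fold fall, and had -0.25 ± 0.08 in the erg6 deletion strain (adjusted p = 0.0510). UGA2, the dehydrogenase of the next step, had -0.08 and -0.05 in parental cells, -0.04 and -0.33 in erg6 deletion cells, and -1.23 and -1.38 in snq2 deletion cells. It was near 0 in the parental and erg6 deletion strains and fell by 1.31 ± 0.10 in the snq2 deletion strain (adjusted p = 4.93e-04). UGA4, the GABA permease, passed in no response, and its replicates differed by more than 1 in every strain (0.80 and -0.78 in parental cells, -0.49 and -4.46 in erg6 deletion cells, and -0.93 and -2.17 in snq2 deletion cells).

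PUT1, the proline oxidase, had -0.66 and -0.91 in parental cells, 0.44 and 0.53 in erg6 deletion cells, and -0.73 and -0.63 in snq2 deletion cells. The erg6 deletion arrays alone were above 0. PUT1 fell by 0.79 ± 0.10 in the parental (adjusted p = 0.00167) and by 0.68 ± 0.10 in the snq2 deletion strain (adjusted p = 0.00316), and rose by 0.49 ± 0.10 in the erg6 deletion strain (adjusted p = 0.00942). PUT2, the dehydrogenase that completes proline breakdown, had -0.13 ± 0.10 and -0.19 ± 0.10 in the parental and erg6 deletion strains and fell by 0.41 ± 0.10 in the snq2 deletion strain. PUT4, the proline permease, rose by 0.63 ± 0.16, 1.25 ± 0.16 and 1.11 ± 0.16 in the parental, erg6 deletion and snq2 deletion strains. The permease and the oxidase of proline thus had opposite signs in the parental and snq2 deletion strains. CAR1, arginase, had 0.28 and 0.42 in parental cells, -0.80 and -0.79 in erg6 deletion cells, and 0.22 and 0.24 in snq2 deletion cells. It rose by 0.35 ± 0.08 in the parental strain and fell by 0.79 ± 0.08 in the erg6 deletion strain (adjusted p = 0.00132). CAR2, ornithine aminotransferase, passed in no response, with 0.59 ± 0.25, -0.17 ± 0.25 and 0.55 ± 0.25. Its arrays stood at 0.49 and 0.69 in parental, -0.72 and 0.38 in erg6 deletion, and 0.58 and 0.51 in snq2 deletion cells. The strains share the standard error, and CAR2 gained a parental call in 4 alternatives and an snq2 deletion call in 3. Calls in this group were lost for PUT4 without parental replicate 1 or either snq2 deletion array (adjusted p up to 0.167) and CAR1 without either parental array (adjusted p up to 0.161) in the parental response, for PUT1 without erg6 deletion replicate 2 (adjusted p up to 0.0548) in the erg6 deletion response, and for PUT2 without either snq2 deletion array (adjusted p up to 0.135) in the snq2 deletion response.

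The ammonium transporters and the general amino acid permease all fell in the snq2 deletion strain, where 26.2% of all genes fell. Their median there was -1.14, against -0.07 in the parental and -0.02 in the erg6 deletion response. MEP2, the high-affinity ammonium transporter that also acts as a sensor of ammonium, had -0.03 and -0.01 in parental cells, 0.22 and 0.51 in erg6 deletion cells, and -2.27 and -2.37 in snq2 deletion cells. Both snq2 deletion arrays lay more than 2 log2 units below all others. MEP2 fell by 2.32 ± 0.10 in that strain (adjusted p = 1.66e-04), a 4.99-fold fall, rose by 0.37 ± 0.10 in the erg6 deletion strain (adjusted p = 0.0270), and had -0.02 ± 0.10 in the parental strain (adjusted p = 0.872). MEP3, a transporter of lower affinity, had -0.31 and 0.07 in parental cells, -0.51 and -0.13 in erg6 deletion cells, and -1.50 and -2.13 in snq2 deletion cells, and fell by 1.82 ± 0.19 in the snq2 deletion strain (adjusted p = 0.00119). MEP1, its close relative, had -1.09 and -0.94 in parental cells, 0.22 and 0.36 in erg6 deletion cells, and -0.45 and -0.37 in snq2 deletion cells. MEP1 fell by 1.01 ± 0.09 in the parental strain (adjusted p = 5.82e-04), where MEP3 had -0.12 ± 0.19. It rose by 0.29 ± 0.09 in the erg6 deletion and fell by 0.41 ± 0.09 in the snq2 deletion strain. GAP1, the general permease that is a standard readout of nitrogen catabolite repression, had 0.02 and 0.14 in parental cells, -0.67 and -0.81 in erg6 deletion cells, and -0.43 and -0.51 in snq2 deletion cells. It fell by 0.74 ± 0.09 in the erg6 deletion strain (adjusted p = 0.00189) and by 0.47 ± 0.09 in the snq2 deletion strain (adjusted p = 0.00764), and did not pass in the parental strain (adjusted p = 0.475). Calls were lost for MEP1 without any 1 of the 6 arrays (adjusted p up to 0.223) and MEP2 without either parental array or erg6 deletion replicate 2 (adjusted p up to 0.190) in the erg6 deletion response and for MEP1 without either snq2 deletion array (adjusted p up to 0.103) and GAP1 without snq2 deletion replicate 2 (adjusted p up to 0.0782) in the snq2 deletion response.

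Of the 5 genes of ammonium assimilation, beside 54.0%, 54.7% and 51.5% of all genes that passed in the parental, erg6 deletion and snq2 deletion responses, 1 rose and 3 fell in the parental response (median -0.66), 4 rose and 1 fell in the erg6 deletion response (0.77), and 1 rose and 1 fell in the snq2 deletion response (-0.14). GLN1, glutamine synthetase, had -1.84 and -1.79 in parental cells, -0.32 and -0.68 in erg6 deletion cells, and -1.84 and -1.60 in snq2 deletion cells. All 6 ratios were negative, and the erg6 deletion arrays were the nearest to 0. GLN1 fell by 1.82 ± 0.12 in the parental (adjusted p = 2.81e-04), 1.72 ± 0.12 in the snq2 deletion (adjusted p = 3.52e-04) and 0.50 ± 0.12 in the erg6 deletion strain (adjusted p = 0.0180). Its glutamine product is known as a signal of nitrogen sufficiency in yeast. GLT1, glutamate synthase, which makes glutamate from the glutamine that GLN1 supplies, rose by 0.73 ± 0.08 in the parental strain (adjusted p = 0.00131) and by 0.38 ± 0.08 in the erg6 deletion strain (adjusted p = 0.0133), and had -0.07 ± 0.08 in the snq2 deletion strain.

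GDH2, the glutamate dehydrogenase that degrades glutamate, had -0.64 and -0.67 in parental cells, 1.14 and 1.34 in erg6 deletion cells, and 1.38 and 1.55 in snq2 deletion cells. Both deletion strains were above 1 and the parental arrays below 0. GDH2 fell by 0.66 ± 0.10 in the parental strain (adjusted p = 0.00292) and rose by 1.24 ± 0.10 and 1.47 ± 0.10 in the erg6 and snq2 deletion strains (adjusted p = 6.24e-04 and adjusted p = 3.02e-04). GDH1 and GDH3 encode paralogous dehydrogenases that make glutamate from ammonium. GDH3 had -0.52 and -0.84 in parental cells, 1.10 and 0.93 in erg6 deletion cells, and -0.22 and -0.20 in snq2 deletion cells, and GDH1 had 0.14 and 0.10 in parental cells, 0.87 and 0.67 in erg6 deletion cells, and -0.12 and -0.16 in snq2 deletion cells. GDH3 fell by 0.68 ± 0.11 in the parental strain while GDH1 did not pass (0.12 ± 0.09), and in the erg6 deletion strain GDH3 rose by 1.01 ± 0.11 and GDH1 by 0.77 ± 0.09. Probe sequences were not analysed here, so how far paralogs share signal was not tested. Calls were lost for GLN1 without erg6 deletion replicate 2 and on equally scaled or quantile-normalised arrays (adjusted p up to 0.119) and GLT1 without erg6 deletion replicate 2 (adjusted p up to 0.0926) in the erg6 deletion response.

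**Figure D3:**
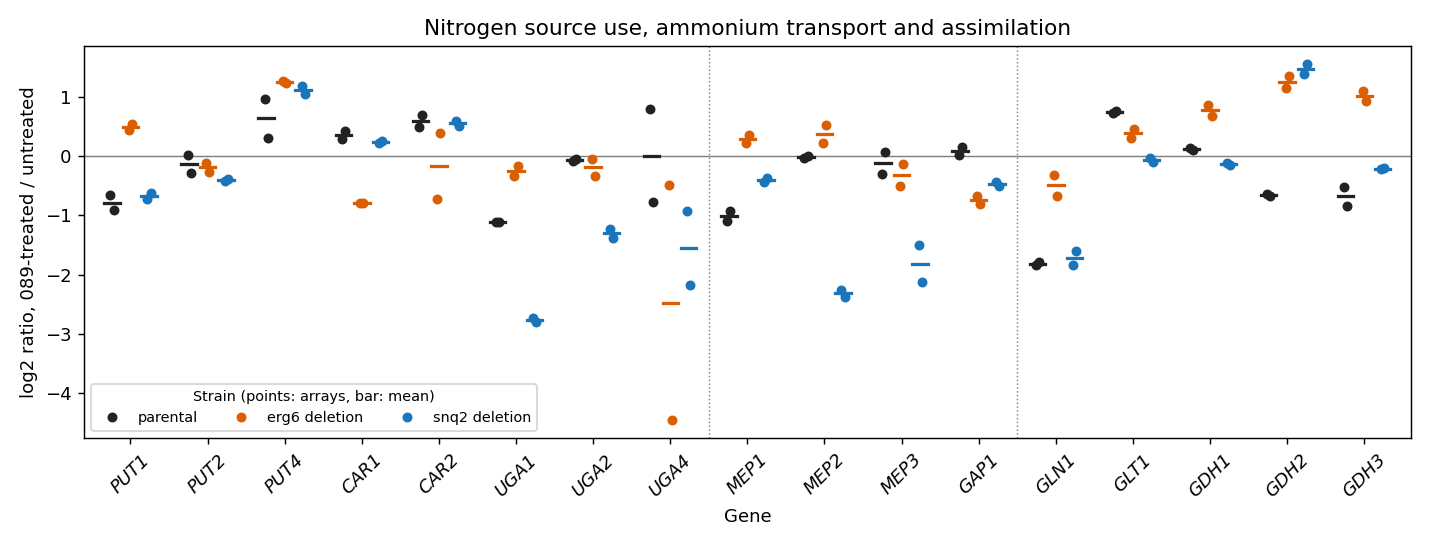
Log2 ratio of treated over untreated cells (vertical axis) for 17 genes, with a point for each array, a bar for the mean of 2 arrays and a colour for each strain. Dotted lines separate the use of proline, arginine and GABA, the ammonium and general permeases, and ammonium assimilation. The snq2 deletion arrays are lowest for UGA1 and MEP2, and GDH2 is positive in both deletion strains and negative in the parental strain.

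Among the transcription factors, GLN3 and GZF3 fell in the parental and snq2 deletion strains. None of the 6 genes passed in the erg6 deletion strain, where 54.7% of all genes did. Without adjustment for the number of genes, 1 of the 6, UGA3, had a limma p under 0.05 there. The group had 1 higher and 2 lower calls in the parental response (median -0.22) and 1 higher and 3 lower in the snq2 deletion response (-0.43). Of all genes 27.3% rose and 26.7% fell in the former, and 25.3% and 26.2% in the latter. GLN3, a GATA activator, had -1.16 and -1.49 in parental cells, -0.01 and 0.05 in erg6 deletion cells, and -0.77 and -0.86 in snq2 deletion cells. It fell by 1.33 ± 0.11 in the parental strain (adjusted p = 4.42e-04) and by 0.82 ± 0.11 in the snq2 deletion strain (adjusted p = 0.00224), while the erg6 deletion arrays stood at 0 within 0.05. GAT1, the other GATA activator, had -0.08 and 0.03 in parental cells, -0.34 and 0.08 in erg6 deletion cells, and -0.89 and -0.83 in snq2 deletion cells and fell by 0.86 ± 0.12 in the snq2 deletion strain (adjusted p = 0.00293). In the parental strain, where GLN3 fell, GAT1 had -0.02 ± 0.12. GZF3, a GATA repressor, fell by 0.41 ± 0.11 and 0.71 ± 0.11 in the parental and snq2 deletion strains. DAL80, the other repressor, passed nowhere, and its parental arrays stood at 0.67 and -3.65. DAL82, which activates the allantoin genes when their inducer is present, rose by 0.64 ± 0.10 in the parental and 0.52 ± 0.10 in the snq2 deletion strain. UGA3, the activator of the GABA genes, passed in no response, with 0.01 ± 0.13, -0.38 ± 0.13 and -0.16 ± 0.13. Calls were lost for GZF3 without either parental array (adjusted p up to 0.211) in the parental response and for GZF3 without snq2 deletion replicate 2 (adjusted p up to 0.0539) and DAL82 without snq2 deletion replicate 1 (adjusted p up to 0.0726) in the snq2 deletion response.

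Of the 8 permeases that the amino acid sensor is known to induce, 4 fell and 4 did not pass in the snq2 deletion strain (median -0.57). There 26.2% of all genes fell. BAP3, a permease of branched-chain amino acids, had -0.11 and 0.00 in parental cells, -1.26 and -1.50 in erg6 deletion cells, and -1.44 and -1.45 in snq2 deletion cells. Both deletion strains lay more than 1 log2 unit below the parental strain. BAP3 fell by 1.38 ± 0.09 in the erg6 deletion (adjusted p = 5.06e-04) and by 1.44 ± 0.09 in the snq2 deletion strain (adjusted p = 3.06e-04), and had -0.06 ± 0.09 in the parental strain (adjusted p = 0.645). BAP2, its paralog, passed in no response, with -0.18 ± 0.11, 0.11 ± 0.11 and -0.15 ± 0.11. PTR2, the transporter of di- and tripeptides, had -1.01 and -1.23 in parental cells, 0.63 and 0.13 in erg6 deletion cells, and -1.75 and -1.89 in snq2 deletion cells. It fell by 1.12 ± 0.14 in the parental (adjusted p = 0.00190) and by 1.82 ± 0.14 in the snq2 deletion strain (adjusted p = 4.93e-04). In the erg6 deletion strain PTR2 was positive on both arrays but did not pass (0.38 ± 0.14, adjusted p = 0.0716).

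GNP1, the glutamine permease, fell by 0.50 ± 0.09 in the erg6 deletion and by 1.03 ± 0.09 in the snq2 deletion strain (adjusted p = 7.64e-04), with 0.04 ± 0.09 in the parental strain. AGP1, its broad-range paralog, fell by 0.98 ± 0.14 in the snq2 deletion strain (adjusted p = 0.00313) and had -0.36 ± 0.14 and -0.15 ± 0.14 in the parental and erg6 deletion strains. TAT2, the high-affinity permease of tryptophan, whose stability at the membrane is known to depend on ergosterol, had 0.75 and 0.68 in parental cells, -0.54 and -0.57 in erg6 deletion cells, and -0.03 and -0.21 in snq2 deletion cells. The 3 strains did not overlap. TAT2 rose by 0.72 ± 0.09 in the parental strain (adjusted p = 0.00159), fell by 0.56 ± 0.09 in the erg6 deletion strain (adjusted p = 0.00421) and had -0.12 ± 0.09 in the snq2 deletion strain. TAT1, a permease of tyrosine and branched-chain amino acids, and DIP5, the permease of glutamate and aspartate, passed in no response. TAT1 ratios lay between -0.18 and 0.28 on all 6 arrays, and DIP5 ratios between -0.85 and 0.75. Over the 8 genes 1 rose and 1 fell in the parental response (median -0.15), and 3 fell and 5 did not pass in the erg6 deletion response (-0.02). Of all genes 27.3% rose and 26.7% fell in the parental and 31.5% fell in the erg6 deletion response. Calls were lost for GNP1 without erg6 deletion replicate 2 (adjusted p up to 0.0533) in the erg6 deletion response.

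Of the remaining permeases, the carriers of basic amino acids split. ALP1, an arginine permease, had 1.15 and 1.18 in parental cells, 0.16 and 0.26 in erg6 deletion cells, and 0.62 and 0.72 in snq2 deletion cells. All 6 ratios were positive and the parental arrays were the highest. ALP1 rose by 1.17 ± 0.08 in the parental (adjusted p = 3.19e-04) and by 0.67 ± 0.08 in the snq2 deletion strain (adjusted p = 0.00186), and had 0.21 ± 0.08 in the erg6 deletion strain. CAN1, the main arginine permease and the paralog of ALP1, had -0.79 and -0.62 in parental cells, -0.43 and -0.69 in erg6 deletion cells, and -0.78 and -0.69 in snq2 deletion cells. The 3 strains overlapped, and CAN1 fell by 0.70 ± 0.10, 0.56 ± 0.10 and 0.74 ± 0.10 in the parental, erg6 deletion and snq2 deletion strains. LYP1, the lysine permease of the same family, fell by 0.68 ± 0.09 in the erg6 deletion (adjusted p = 0.00254) and by 0.58 ± 0.09 in the snq2 deletion strain (adjusted p = 0.00389), with 0.05 ± 0.09 in the parental strain. HIP1, the histidine permease, fell by 0.48 ± 0.15, 0.55 ± 0.15 and 1.34 ± 0.15 in the parental, erg6 deletion and snq2 deletion strains. Lysine and histidine are among the nutrients that these auxotrophic strains must import.

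AGP3, a permease of low affinity, had 0.52 and -0.07 in parental cells, -0.50 and -0.63 in erg6 deletion cells, and 0.70 and 0.93 in snq2 deletion cells. It fell by 0.56 ± 0.16 in the erg6 deletion strain (adjusted p = 0.0294) and rose by 0.81 ± 0.16 in the snq2 deletion strain (adjusted p = 0.00917), and its parental arrays disagreed in sign. AGP2, a permease-like regulator of carnitine and polyamine uptake, rose by 0.91 ± 0.22 in the snq2 deletion strain (adjusted p = 0.0182), with erg6 deletion arrays at -0.43 and 0.50. SSY1, the amino acid sensor itself, passed in no response, with -0.10 ± 0.21, -0.32 ± 0.21 and -0.55 ± 0.21. Its snq2 deletion arrays both stood at -0.55, while its erg6 deletion arrays stood at 0.14 and -0.77. SSY1 gained an snq2 deletion call in 4 alternatives. Over these 7 genes 1 rose and 2 fell in the parental response (median -0.10), 4 fell and 3 did not pass in the erg6 deletion response (-0.55), and 3 rose and 3 fell in the snq2 deletion response (-0.55). The shares of all genes that rose and fell were 27.3% and 26.7%, 23.2% and 31.5%, and 25.3% and 26.2% in that order. Calls were lost for HIP1 without either parental array (adjusted p up to 0.286) in the parental response, for AGP3 without either erg6 deletion array or either snq2 deletion array and on centred arrays (adjusted p up to 0.124) and HIP1 without either erg6 deletion array and on centred arrays (adjusted p up to 0.0938) in the erg6 deletion response and for AGP2 without either snq2 deletion array (adjusted p up to 0.160) and AGP3 without either snq2 deletion array (adjusted p up to 0.110) in the snq2 deletion response.

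**Figure D4:**
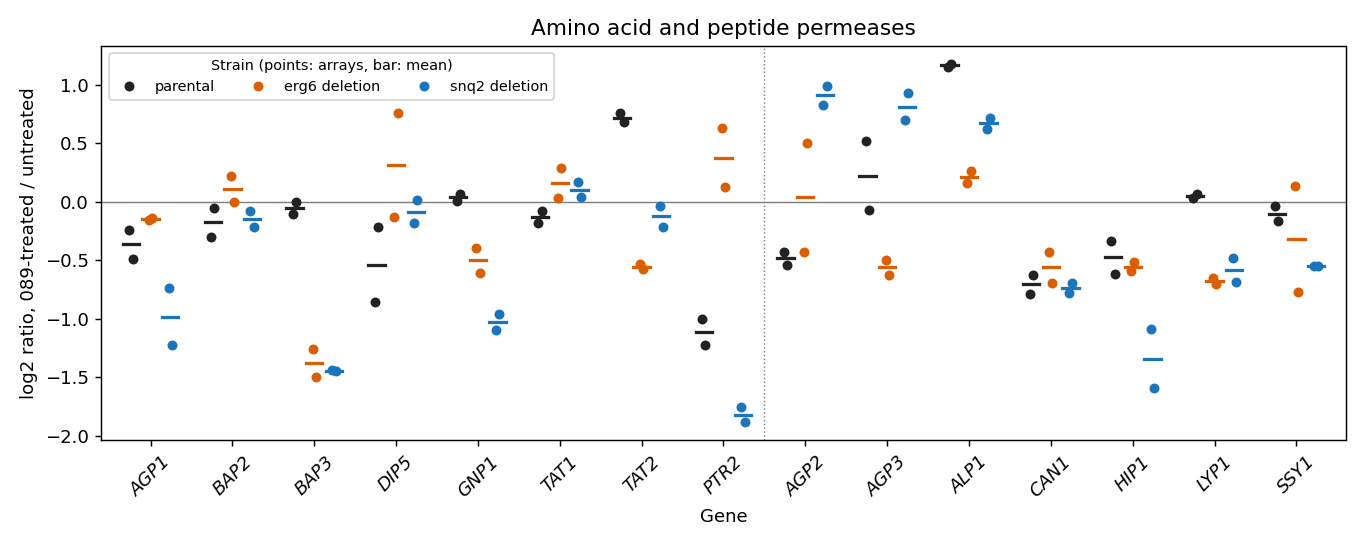
Log2 ratio of treated over untreated cells (vertical axis) for the amino acid and peptide permeases and SSY1, with a point for each array, a bar for the mean of 2 arrays and a colour for each strain. BAP3 is below -1 in both deletion strains and near 0 in the parental strain, TAT2 is positive in the parental strain alone, and CAN1 is negative on all 6 arrays.

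Differences between the strains were tested in the same fit. The erg6 deletion and snq2 deletion strains were each set against the same parental arrays, so these 2 comparisons are not independent of each other. Between the erg6 deletion and parental responses 26 of the 46 genes differed, against 56.8% of all genes, and 14 did so by at least 2-fold, against 30.2%. Here 10 of the 46 genes were higher and 16 lower (21.7% and 34.8%), against 25.4% and 31.4% of all genes. Between the snq2 deletion and parental responses 23 differed, against 39.2%, and 9 did so by at least 2-fold (19.6%), against 17.2%. Here 4 were higher and 19 lower (8.70% and 41.3%), against 16.4% and 22.8%. Between the erg6 and snq2 deletion responses 26 differed, against 49.6%, and 11 did so by at least 2-fold, against 21.3%. Here 17 were higher in the erg6 deletion strain and 9 lower (37.0% and 19.6%), against 23.0% and 26.5%. Of the differences, those of MEP2 and GDH2 between the snq2 deletion and parental strains lay outside the central 95% of the control spots (5.19% of all genes). In limma 0 of the 26 between the erg6 deletion and parental strains (3.60%) and 0 of the 26 between the deletion strains (3.25%) did, and the counts were 0 and 0 with an unadjusted p under 0.05 as well.

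Of the allantoin and urea genes 6 of 8 were lower in the erg6 deletion than in the parental response, as were 31.4% of all genes. The median difference was -1.12, beside -0.13 over all genes. For DAL1 the call of this difference was lost in 5 alternatives. The difference was -1.77 ± 0.14 for DAL4 (adjusted p = 3.98e-04), -1.72 ± 0.12 for DUR3 (adjusted p = 3.40e-04) and -1.69 ± 0.15 for DAL5 (adjusted p = 6.01e-04). In the snq2 deletion strain 5 of the 8 were lower than in the parental strain, as were 22.8% of all genes. The median there was -0.87, and the difference was -1.32 ± 0.14 for DAL4 (adjusted p = 0.00197). Of these 5 differences, that of DAL1 was lost without either parental or either snq2 deletion array. Those of DAL5 and DAL7 were lost without parental replicate 1. On the higher side, the difference between the erg6 deletion and parental responses was 1.90 ± 0.13 for GDH2 (adjusted p = 3.40e-04), 1.70 ± 0.15 for GDH3 (adjusted p = 5.89e-04), 1.30 ± 0.13 for MEP1 (adjusted p = 7.40e-04) and 1.34 ± 0.15 for GLN3 (adjusted p = 0.00111). It was also 1.49 ± 0.20 for PTR2 (adjusted p = 0.00216), 1.32 ± 0.17 for GLN1 (adjusted p = 0.00184) and 1.27 ± 0.14 for PUT1 (adjusted p = 0.00102). GDH1, UGA1 and GZF3 were the rest of the 10 genes that were higher there.

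In the snq2 deletion strain MEP2 and UGA1 were lower than in the parental strain, with differences of -2.30 ± 0.14 (adjusted p = 7.38e-04) and -1.65 ± 0.12 (adjusted p = 8.36e-04), and MEP3 differed by -1.69 ± 0.27. GDH2 was higher there by 2.12 ± 0.13 (adjusted p = 7.50e-04). The erg6 deletion response exceeded the snq2 deletion response by 2.69 ± 0.14 for MEP2 (adjusted p = 5.47e-04), 2.51 ± 0.12 for UGA1 (adjusted p = 5.47e-04) and 2.20 ± 0.20 for PTR2 (adjusted p = 0.00118). It was lower for AGP3 and DCG1, with differences of -1.37 ± 0.22 for AGP3 (adjusted p = 0.00565) and -1.09 ± 0.12 for DCG1 (adjusted p = 0.00188). The count of 23 genes that differed between the snq2 deletion and parental strains fell to 14 without parental replicate 1, to 13 without parental replicate 2 and to 13 without snq2 deletion replicate 2.

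**Figure D5:**
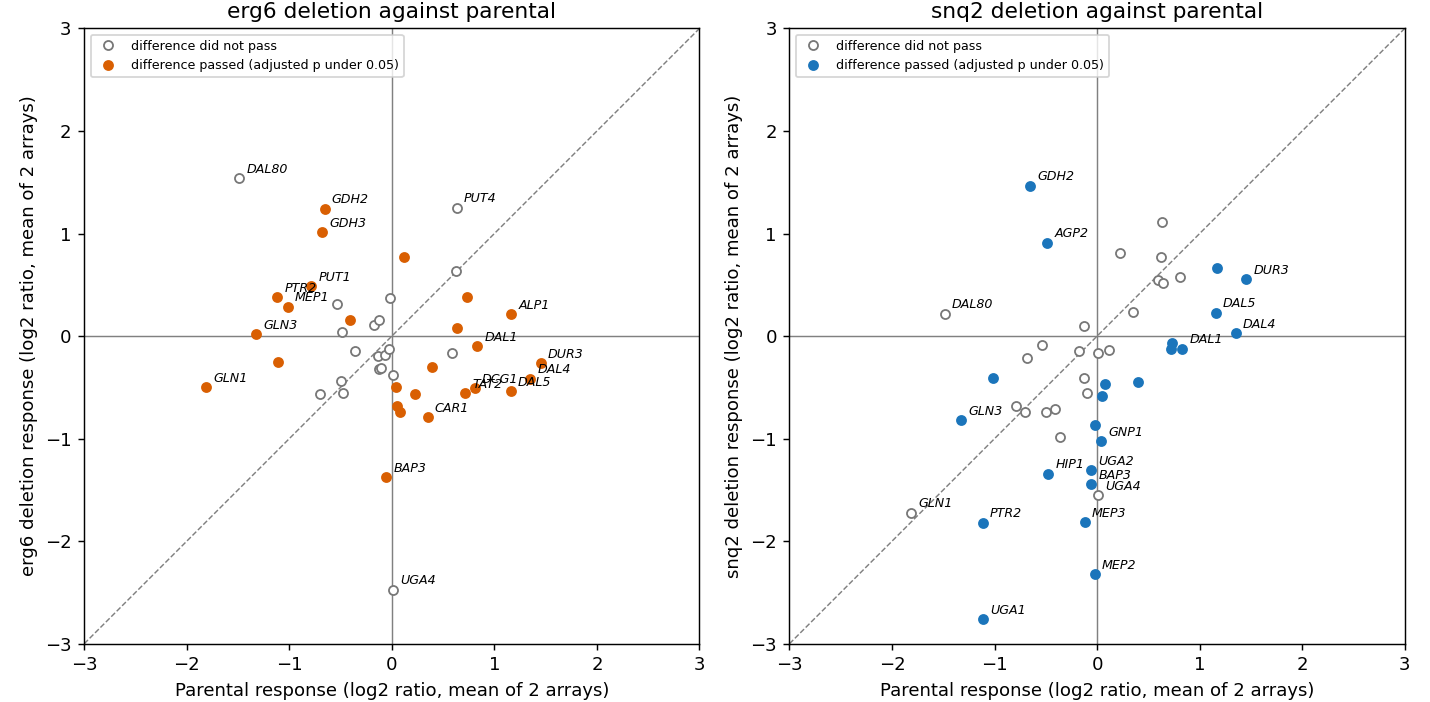
Response of each of the 46 genes (log2 ratio of treated over untreated cells, mean of 2 arrays) in the parental strain (horizontal axis) against the erg6 deletion or snq2 deletion strain (vertical axis). DAL4, DAL5 and DUR3 lie to the right of 1 and below ALP1, the other gene to the right of 1, in both deletion strains, and UGA1 and MEP2 lie lowest in the snq2 deletion strain.

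Other genes of nitrogen control were counted from lists of related genes, beside 27.3% higher and 26.7% lower of all genes in the parental, 23.2% and 31.5% in the erg6 deletion and 25.3% and 26.2% in the snq2 deletion response. Of 11 regulators 4 rose and 1 fell in the parental response, 2 rose and 3 fell in the erg6 deletion response, and 4 fell and 7 did not pass in the snq2 deletion response, so that 5, 5 and 4 of the 11 passed, where 54.0%, 54.7% and 51.5% of all genes did. NPR1, the kinase that stabilises Gap1 and other permeases, rose by 0.29 ± 0.08 in the parental strain and fell by 0.73 ± 0.08 in the erg6 deletion strain (adjusted p = 0.00170). The parental call was lost for NPR1 without either parental array (adjusted p up to 0.190). NPR3, a brake on TORC1, rose by 0.89 ± 0.08 in the parental strain (adjusted p = 7.04e-04) and fell by 0.72 ± 0.08 in the snq2 deletion strain (adjusted p = 0.00158). Of 8 genes of the amino acid sensor pathway 3 fell in the parental response, namely STP2, ASI1 and ASI2. The call of ASI1 was lost without either parental array. In the snq2 deletion strain 4 fell, and in the erg6 deletion strain 3 fell and 1 rose. That gene was STP2, a factor the sensor activates, which had -0.98 and -0.75 in parental cells, 0.34 and 0.49 in erg6 deletion cells, and -1.70 and -1.91 in snq2 deletion cells. STP2 rose by 0.42 ± 0.11 in the erg6 deletion strain and fell by 0.86 ± 0.11 and 1.81 ± 0.11 in the parental and snq2 deletion strains. The erg6 deletion call was lost for STP2 without erg6 deletion replicate 2 (adjusted p up to 0.126) and in a fit to that strain alone.

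Of 16 other genes for the use of nitrogen sources 2 rose and 7 fell in the parental response (median -0.18), 9 rose and 2 fell in the erg6 deletion response (0.41), and 6 rose and 6 fell in the snq2 deletion response (0.07). The shares of all genes are those given for the regulators. ARO9 and ARO10, a transaminase and a decarboxylase of aromatic amino acid breakdown, rose by 1.73 ± 0.09 and 2.18 ± 0.12 in the snq2 deletion strain (adjusted p = 1.99e-04 and adjusted p = 2.22e-04) and by 1.21 ± 0.09 and 0.95 ± 0.12 in the erg6 deletion strain. ARO9 had 0.01 ± 0.09 in the parental strain, where ARO10 rose by 0.48 ± 0.12 (limma, adjusted p = 0.0193). This call of ARO10 was lost without either parental array. The erg6 deletion minus parental difference of ARO10 did not pass (0.48 ± 0.17, adjusted p = 0.0555). Of 16 other amino acid and peptide transporters 4 rose and 4 fell in the parental, 2 rose and 5 fell in the erg6 deletion, and 4 rose and 6 fell in the snq2 deletion response. With 8, 7 and 10 of 16 called, against 54.0%, 54.7% and 51.5% of all genes, the counts show nothing particular to these transporters. MUP1, the methionine permease, fell by 1.34 ± 0.15 and 1.24 ± 0.15 in the parental and snq2 deletion strains and had -0.36 ± 0.15 in the erg6 deletion strain.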

How the data were processed

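Each of the 6 arrays gave 1 deposited value per spot, a signed log ratio taken here as log2 of Cy5 (treated) over Cy3 (untreated). Per the labels' protocols the authors scanned the slides on a GenePix 4000B; their normalization, like base and direction, is not stated. The deposited log2 values were used without further scaling. Of 7045 features, 683 control spots were left out and 6362 genes tested, of which 5826 matched a locus tag of RefSeq R64. The precision is limited by 2 arrays per strain.

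A linear model in limma 3.58.1 (R 4.3.3) gave 1 mean per strain over all 6 arrays, with moderated variances (3 residual and 2.45 prior degrees of freedom). The 3 responses and their 3 differences were tested, each adjusted by Benjamini-Hochberg over the 6362 genes, with a threshold of 0.05. The fit was tested on simulated data. Replicate numbers were not used to pair the strains in the main fit. Across all genes, same-numbered arrays of different strains deviated together with correlations of 0.095, -0.042 and -0.002. So no strong shared deviation was seen, but this cannot show whether the numbers mark a shared batch. Alternatives were rescaled arrays, left-out arrays, array weights, robust variances, a fit to the compared strains alone, a replicate block, fold minimums, and other sets of spots. An alternative that keeps only calls outside the central 95% of the control spots was chosen after seeing the data. The 46 genes, their groups and the related lists were chosen with earlier results of these data known. All 46 could be named. Full statistics were given for up to 6 genes per direction and comparison with the smallest p and for paralog pairs such as MEP1 and MEP3, GAT1 and GLN3, and AGP1 and GNP1. An adjusted p was also given for some further members, among them AGP2 and AGP3, chosen after their values were seen. Up to 3 genes of each related list were named by the smallest p in any response, and ASI1 was named to complete a count. Promoter and protein sequences were not used here.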

Additional observations from a re-analysis of the deposited data

Results flagged for a closer look

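In 11 of the 46 genes the erg6 deletion and parental responses passed in opposite directions and their difference passed as well (limma, adjusted over 6362 genes). The erg6 deletion minus parental difference was -1.77 for DAL4, -1.69 for DAL5, -0.70 for DAL7, -1.32 for DCG1 and -1.72 for DUR3, all genes of allantoin and urea use. It was -1.14 for CAR1 and -1.27 for TAT2. It was positive for PUT1 (1.27), MEP1 (1.30), GDH2 (1.90) and GDH3 (1.70). Of all genes 18.4% had opposite calls in these responses, beside 23.9% of the 46.

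Between the snq2 deletion and parental strains the same held for DAL7, with a difference of -0.84, and GDH2, with 2.12. Opposite calls in these responses were made for 6.40% of all genes. Between the erg6 deletion and snq2 deletion strains it held for DCG1 (-1.09), DUR3 (-0.82), PUT1 (1.17), MEP1 (0.70), MEP2 (2.69) and AGP3 (-1.37), with 11.9% of all genes called in opposite directions. The erg6 deletion calls of DAL4, DAL5, DAL7, DCG1, DUR3, PUT1, MEP1, MEP2 and AGP3 were each lost in 1 or more alternatives. So were the parental calls of DAL7 and CAR1 and the snq2 deletion calls of DAL7, DUR3, MEP1 and AGP3. The snq2 deletion minus parental difference of DAL7 was lost without parental replicate 1.

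Control spots, which the comparisons of genes do not use, passed in 43.2% (parental), 72.3% (erg6 deletion) and 40.6% (snq2 deletion) of cases. With the control spots kept in the fit, the counts of the 46 genes called in these responses were 24, 24 and 29. In the main fit, which left the control spots out, 1, 0 and 6 of the calls lay outside the central 95% of the control spots.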

How the results depend on the processing

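Of 4410 values of the 46 genes under the alternatives that refit the model, 4088 kept their side of the threshold, 224 lost their call, 94 gained one and 4 reversed. A change of sign was counted as reversed only where the main or the refitted value passed. Sign changes of values that passed in neither are among the 4088. Calls kept in every refit numbered 18 of 24 (parental), 10 of 24 (erg6 deletion), 20 of 29 (snq2 deletion), 20 of 26 (erg6 deletion minus parental), 11 of 23 (snq2 deletion minus parental) and 17 of 26 (erg6 minus snq2 deletion). In the same order, calls of at least 2-fold numbered 9, 4, 11, 14, 9 and 11, against 15.5%, 11.1%, 14.8%, 30.2%, 17.2% and 21.3% of all genes. Calls outside the control spots' central 95%, chosen after seeing the data, numbered 1, 0, 6, 0, 2 and 0 (limma, all genes 3.77%, 2.53%, 5.23%, 3.60%, 5.19% and 3.25%). A minimum of 1.5-fold left 9 erg6 deletion calls. A fit to that strain alone made 13 calls, not all of them among the 24 of the main fit, of which it lost 12. Without 1 array, counts ran from 19 to 28, 17 to 24, 21 to 33, 21 to 30, 13 to 24 and 18 to 25 in that order. With an erg6 deletion array left out, DAL3 ran from -1.91 (without replicate 1) to 1.04 (without replicate 2) in that strain, from -1.42 to 1.54 against the parental strain and from -1.17 to 1.78 against the snq2 deletion strain, and AGP2 from 0.50 to -0.43 in that strain. Both genes' erg6 deletion arrays disagreed in sign. For the other changes the cause was not tested. With the replicate block the counts were 25, 25, 29, 27, 22 and 25, though whether the numbers pair the samples is not known. Depth is unknown, since no intensities were used here.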

Other observations

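Of the 46 genes, 9 passed in no strain's response (DAL3, CAR2, UGA4, DAL80, UGA3, BAP2, DIP5, TAT1 and SSY1), beside 15.3% of all genes. For some of these the arrays of a strain disagreed: DAL80 stood at 0.67 and -3.65 on the parental arrays, UGA4 at -0.49 and -4.46 on the erg6 deletion arrays, and CAR2 at -0.72 and 0.38 there. The strains share a spread per gene, so such a gene could miss the threshold in a strain whose own arrays agreed. The median absolute difference between replicates was 0.13, 0.19 and 0.14 over the 46 genes in the parental, erg6 deletion and snq2 deletion strains, beside 0.15, 0.20 and 0.17 over all genes.

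OPT2, an oligopeptide transporter, had 1.19 and 1.15 in parental cells, -4.11 and -2.87 in erg6 deletion cells, and 0.86 and 1.00 in snq2 deletion cells, and 183 genes lay at or below -3 on an erg6 deletion array. ASP3-3, an asparaginase gene with near-identical copies whose signals may not be separable, had -1.73 and -1.81 in parental cells, 0.65 and 0.69 in erg6 deletion cells, and -0.42 and -0.26 in snq2 deletion cells. AVT3, a vacuolar amino acid exporter, rose by 1.17 ± 0.12 and 0.71 ± 0.12 in the erg6 and snq2 deletion strains. Its snq2 deletion call was lost without either snq2 deletion array (adjusted p up to 0.0554).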
